A study of Drosophila melanogaster with 2 samples.

Results

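The strongest peaks of tagged Pleiohomeotic (Pho) described here are 429 of the 4293 regions on the authors' optimal list, or 9.99%, taken from the highest signal value downwards. Peaks came from chromatin immunoprecipitation and sequencing (ChIP-seq) of whole Drosophila melanogaster embryos of mixed sex, aged 0 to 24 h, from a transgenic line with Pho fused to GFP at its C terminus. There was 1 group, with biological replicates that the labels number 3 and 4, and an antibody against GFP was used for precipitation. Whether untagged Pho was also present in the embryos is not given in the sources used here, and no library from untagged embryos was analysed here, so occupancy by Pho and capture of chromatin regardless of the tag cannot be told apart. The remaining 3864 peaks of the optimal list served as the comparison, and read depth is unknown because the files hold no read counts.

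Pho is a zinc finger protein of Drosophila related to mammalian YY1. It binds DNA at sites built around the core GCCAT, forms a complex with the protein Sfmbt, and is best known for bringing Polycomb group repressors to Polycomb response elements, the stretches of DNA that hold silencing in place. Polycomb response elements also bind other factors, among them the GAGA factor, Zeste, Dsp1 and Adf1. Promoters of broadly expressed fly genes often carry other short sequences, such as TATCGATA, which is bound by DREF, and the pairing of 2 genes that are read away from a shared stretch of DNA is common there.

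The summits of the strongest peaks lay in stretches rich in A and T. The following windows of 101 bases, centred on the summit and read from the plus strand of dm6, belong to the 5 strongest members whose window held no UTR base and whose arm is not left out of the printed sequences. Capitals mark matches on either strand to the 4 words of 6 bases that differed most from the rest of the list towards higher frequency, so the words were chosen on these peaks and the marks are a description. ATTTAA was the first of these words, TTAAAA the second, TTTAAA the third and CTTAAA the fourth, and they overlap each other.
cbt, rank 1, chr2L:481006-481106: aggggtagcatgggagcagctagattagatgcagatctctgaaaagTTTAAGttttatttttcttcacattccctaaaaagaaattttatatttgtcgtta
CG11050, rank 2, chr2L:6612659-6612759: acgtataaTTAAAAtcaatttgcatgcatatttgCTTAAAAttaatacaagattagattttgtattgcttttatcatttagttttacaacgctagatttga
CG14100, rank 3, chr3L:19590562-19590662: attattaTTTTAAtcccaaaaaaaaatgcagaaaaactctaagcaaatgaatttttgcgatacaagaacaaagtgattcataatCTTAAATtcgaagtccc
Lk6, rank 6, chr3R:11760996-11761096: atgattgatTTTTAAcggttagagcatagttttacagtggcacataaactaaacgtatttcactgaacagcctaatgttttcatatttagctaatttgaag
CG4004, rank 7, chrX:12751361-12751461: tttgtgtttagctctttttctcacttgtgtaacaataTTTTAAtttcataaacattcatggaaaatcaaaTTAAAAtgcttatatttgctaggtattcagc

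G and C made up 32.7% of the window at cbt, 22.8% at CG11050, 26.7% at CG14100, 30.7% at Lk6 and 25.7% at CG4004. None of these 5 windows held the Pho consensus, here GCCAT followed by A, C or T, then A or T, then C or T.

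Members with the Pho consensus near the summit are shown next, as windows of the same kind with the consensus in capitals, for the 3 strongest such members whose window met the same conditions.
chinmo, rank 37, chr2L:1638734-1638834: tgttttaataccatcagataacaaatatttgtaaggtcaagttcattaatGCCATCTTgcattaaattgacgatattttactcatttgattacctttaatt
osa, rank 53, chr3R:17704350-17704450: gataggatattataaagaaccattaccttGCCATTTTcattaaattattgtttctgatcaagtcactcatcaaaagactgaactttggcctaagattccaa
Fhos, rank 75, chr3L:8766125-8766225: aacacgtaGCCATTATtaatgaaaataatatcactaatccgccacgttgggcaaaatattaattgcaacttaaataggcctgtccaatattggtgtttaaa

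The DREF site TATCGATA was found within 50 bp of the summit in 7 members, all of which ranked 164 or lower, and anywhere in the peak in 25 members. The count over whole peaks was not made in the rest of the list. Stretches of 28 bases around the site, in capitals, are given for RpS25 and eEF1gamma, the 2 members with it that met these conditions over the stretch.
RpS25, rank 268, chr3R:11216329-11216356: ctcgcctgccTATCGATAgttggtggtg
eEF1gamma, rank 293, chr3R:29220121-29220148: gcctaggaaaTATCGATAtatcgccgta

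The signal value that the authors gave each peak chose the members, so its size is described without a test. Values ran from 2583 to 340 in the strongest 429 peaks, with a median of 459, and from 340 to 91.9 in the rest, with a median of 136. The decline was steep at the top: 31 members had values over 1000, 144 had values between 500 and 1000, and 254 had values of 500 or less. The strongest 429 peaks held 28.9% of the summed signal of the list. The −log10 q-value given by the authors was at its highest, 3.89, for all 429 members and for 3482 of the 3864 other peaks, so it did not separate them.

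The 10 strongest peaks had cbt, CG11050, CG14100, Ugalt, mRpL41, Lk6, CG4004, Shc, Chro and mRpS10 as their nearest protein-coding genes. The peak at cbt, a zinc finger transcription factor gene (chr2L:480806-481339), measured 1431 by signal value in replicate 3 and 1160 in replicate 4. At Lk6, which encodes a kinase of the translation initiation factor eIF4E (chr3R:11760846-11761278), the values were 1094 in replicate 3 and 744 in replicate 4. Shc encodes an adaptor of receptor tyrosine kinases, and its promoter peak (chr3L:9426670-9427094) had values of 865 in replicate 3 and 694 in replicate 4. Each of these 10 peaks ranked 11 or higher in replicate 3 and 13 or higher in replicate 4. The peak assigned to CG4004 lay 5094 bp from that gene's start and 456 bp from a start of the noncoding gene lncRNA:CR44619. A further member, rank 27, lay 491 bp from a start of lncRNA:CR44619.

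Ranks 26 to 60 had signal values from 1175 to 765, with a median of 887, and 28 of these 35 summits were at promoters. The peak at eIF6, a factor in the maturation of the large ribosomal subunit, ranked 30 with a value of 1141. The peak at mRpL23, a protein of the mitochondrial ribosome, ranked 39 with a value of 897, and that at SLIRP2, an RNA-binding protein gene, ranked 44 with a value of 882. The peak nearest to eEF1gamma, a translation elongation factor subunit, ranked 56 with a value of 793. It lay 5721 bp from the eEF1gamma start and 111 bp from a start of lncRNA:CR31044.

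Some of these peaks lay at or nearest to genes for regulators of transcription and chromatin. The kinase gene Tlk, named for its likeness to Tousled, had a peak at rank 31 with a signal value of 1062, in an intron. Adf1, a DNA-binding factor of Polycomb response elements, had an intron peak at rank 36 with a value of 938. The BTB zinc finger gene chinmo, which acts in the timing of neuronal identity, had an intergenic peak at rank 37 with a value of 916, 12474 bp upstream of its nearest start. Sox14, an HMG-box factor of the ecdysone response, had a promoter peak at rank 52 with a value of 822. The peak nearest to osa, a subunit of the Brahma remodelling complex, ranked 53 with a value of 820 and lay in an exon of a noncoding transcript, 13950 bp from the osa start.

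Within the same ranks, the peaks at GstE13, a glutathione S-transferase gene (rank 29, value 1148), Fkbp14, a peptidyl-prolyl isomerase gene (rank 35, value 958), and amon, a proprotein convertase gene (rank 38, value 904), all had their summit at a promoter. So did those at MFS10, a transporter gene (rank 34, value 963), Rtnl1, a reticulon of the endoplasmic reticulum (rank 42, value 888), and Fur1, a furin protease (rank 55, value 802). Sesn, the stress-induced sestrin that restrains the kinase TORC1, closed the set at rank 60 with a value of 765. The other nearest genes of ranks 26 to 60 were CG9147, CG13323, CG9837, CG8320, CG17896, CG1635, CG6565, CG16753, CG18549, CG32022, DUBAI, CG5098, nebu, CG8360, hll, CG5611, tank and CG1607, with CG4004 as above.

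The threshold fell in a dense part of the list. Just inside it lay peaks nearest to dpa (rank 427), lgs (rank 428) and CG9300 (rank 429), each with a signal value of 340. Just outside it lay peaks nearest to RpL22 (rank 430, value 340), Glut3 (rank 431, value 339) and CG7872 (rank 432, value 338).

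Members were found again in the lists of the single replicates, which are part of the pooled reads behind the ranking and are therefore given as a description. Within 100 bp of the pooled summit, replicate 3 had a summit for 426 of the 429 members and replicate 4 for 425, and both had one for 422, or 98.4%. In the rest of the list both replicates had one for 3631 of 3864 peaks, or 94.0%. The signal values of the matched members ran from 174 to 1537 in replicate 3, with a median of 279, and from 93.3 to 1160 in replicate 4, with a median of 189. The scale of the values differs between the lists, so ranks were compared.

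A member's median rank was 214 in replicate 3 and 214 in replicate 4, and the lowest ranks were 615 in replicate 3 and 930 in replicate 4. The strongest 429 entries of the replicate's own list held the matched summit of 394 members, or 91.8%, in replicate 3 and of 384 members, or 89.5%, in replicate 4. Both replicates did so for 352 members. The 2 ranks of a member differed by 47 in the median, and by 100 or less for 306 of the 422 members found in both. Across members, Spearman's rho between the replicates' signal values was 0.779 and Pearson's r of log2 values 0.897, against 0.629 and 0.612 across the rest. The narrower range of signal in the rest bears on these 4 values, the points come from the same 2 libraries, and members are not independent samples. Summits of the replicates lay 16 bp apart in the median for members and 24 bp apart for the rest.

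**Figure D1:**
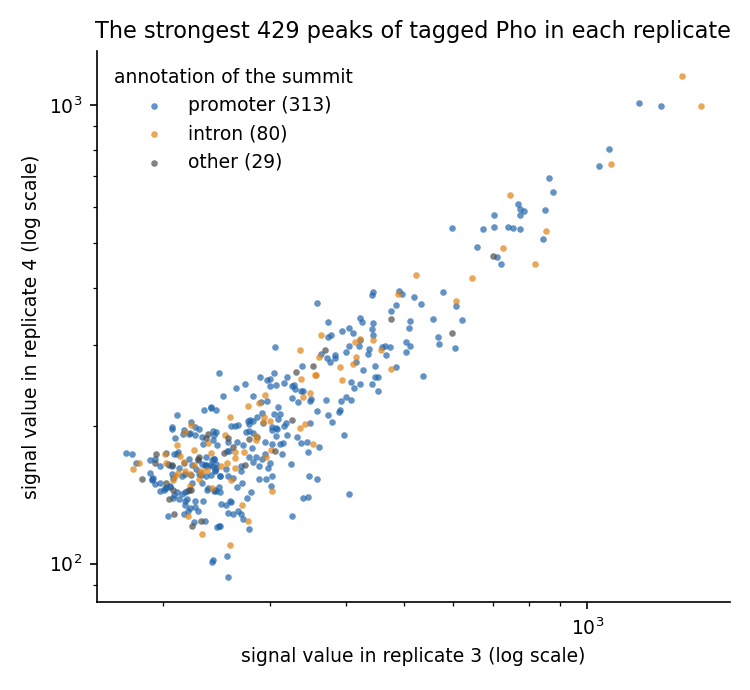
Signal value in replicate 3 (horizontal, log scale) against replicate 4 (vertical, log scale) for the 422 members with a summit within 100 bp in both replicates. Each point is a peak, coloured by the annotation of its summit. Points form a band from the top, with values of 1431 in replicate 3 and 1160 in replicate 4 at cbt, to a broad cloud between 174 and 300 in replicate 3.

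The largest rank differences lay near the threshold and all went the same way. CG10527 ranked 256 in replicate 3 and 930 in replicate 4, with signal values of 256 in replicate 3 and 93.3 in replicate 4. Glyp, which encodes glycogen phosphorylase, ranked 259 in replicate 3 and 752 in replicate 4. CG9300 ranked 295 and 784, wrd, a regulatory subunit of protein phosphatase 2A, 293 and 763, and aos, a secreted inhibitor of the EGF receptor, 251 and 677, with replicate 3 given before replicate 4. These peaks had overall ranks between 365 and 429. Over all 422 members the higher rank was in replicate 4 for 211, in replicate 3 for 203, and the rank was the same for 8.

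There were 7 members without a summit within 100 bp in a replicate. Those at fray (rank 204), Dhc64C (rank 247), Lrch (rank 411) and Sqor (rank 414) had none in replicate 4, and those at bin3 (rank 265), Ide (rank 341) and RasGAP1 (rank 357) had none in replicate 3. With a distance of 250 bp all 429 members had a summit in both replicates, and with 50 bp 388 had.

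Width is set by the peak caller and tied to the signal, and is likewise described only. The members were narrower than most peaks, with a median width of 289 bp, against a median of 436 bp in the rest. Their quartiles were 235 and 354 bp and their range 109 to 800 bp. The next 429 peaks down the list were narrower still, with a median of 226 bp, so narrow peaks were not particular to the members. The value of 436 bp was the most common width on the list. It was undercut by 390 members, or 90.9%, and by 386 other peaks, or 9.99%. It was exceeded by 25 members, or 5.83%, and by 6 other peaks, or 0.155%.

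Within the strongest 429 peaks, width followed rank. The median was 433 bp over ranks 1 to 25, 372 bp over ranks 26 to 60, 328 bp over ranks 61 to 200 and 241 bp over ranks 201 to 429. Of the strongest 25, 11 were wider than 436 bp. The widest member was the peak assigned to CG4004 at rank 7, with 800 bp, followed by CG9663 (rank 12) with 607 bp and HmgZ, an HMG-box protein gene (rank 11), with 599 bp. The list on the dm3 build held 4213 peaks, and its strongest 421 had a median width of 291 bp.

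Promoters held most of the members. Of the 429 summits, 316 lay within 500 bp of a transcript start, or 73.7% (95% Wilson interval 69.3% to 77.6%), against 2347 of 3864, or 60.7% (59.2% to 62.3%), in the rest. The share was higher in the strongest 429 peaks (Fisher's exact test, two-sided, adjusted p = 7.35e-07 over 7 classes). The difference depended on the distance that counts as a promoter. Within 200 bp lay 218 members, or 50.8%, and 1863 other peaks, or 48.2%, which did not differ past the threshold (Fisher's exact test, p = 0.309). Within 1000 bp lay 357 members, or 83.2%, and 2711 other peaks, or 70.2% (Fisher's p = 3.67e-09). Peaks are not biological replicates, so these p-values describe this list of peaks and not a spread between embryos.

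Introns held 83 members, or 19.3% (15.9% to 23.4%), against 1089 other peaks, or 28.2% (26.8% to 29.6%), a lower share in the strongest 429 peaks (Fisher's exact test, adjusted p = 0.000270). With 200 bp for promoters this call was lost too, at an adjusted p of 0.326. Intergenic summits numbered 25 among members, or 5.83%, and 329 in the rest, or 8.51% (Fisher's adjusted p = 0.148). The other classes held 5 members. These were an exon summit of a noncoding transcript near osa and another in the same class, a coding exon summit at Cib2 (rank 234), a 5′ UTR summit at Raf (rank 391), and a 3′ UTR summit at Cals on chromosome 4 (rank 426).

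Signal values were similar across the classes within the strongest 429 peaks. The median value was 465 for promoter members, 468 for intron members and 425 for intergenic members. The strongest intron peak was that at cbt and the strongest intergenic one lay 11901 bp from CG13323, at rank 28. Intron members lay a median of 1373 bp from the nearest start and 66.3% of them lay within 2000 bp, against a median of 2217 bp and 46.7% for intron peaks of the rest.

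**Figure D2:**
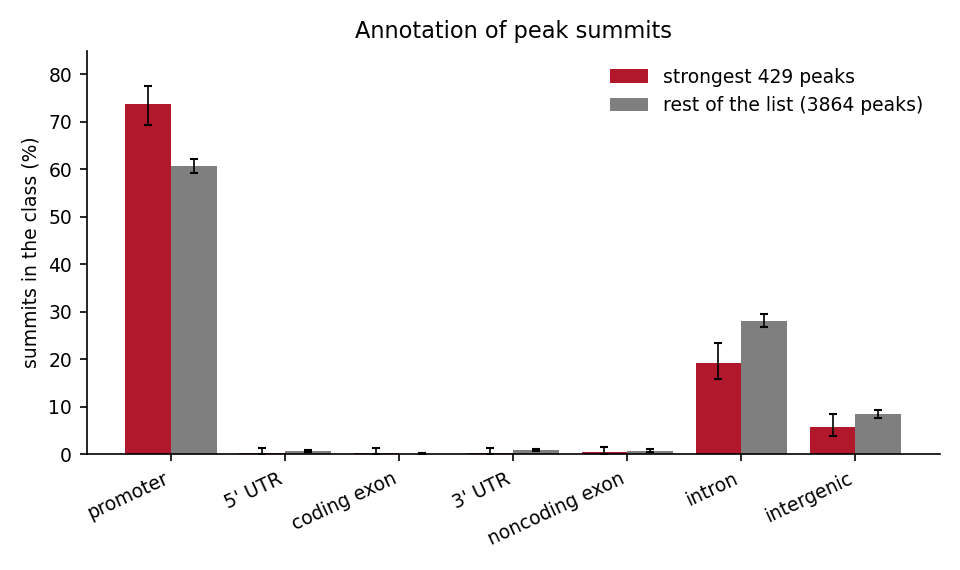
Share of summits in each annotation class (percent, vertical) for the strongest 429 peaks (red, left bar) and the rest of the list (grey, right bar), with 95% Wilson intervals as error bars. Promoters held 73.7% of the strongest 429 peaks and 60.7% of the rest, and introns held 19.3% of the strongest 429 peaks and 28.2% of the rest.

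At promoters, members sat further upstream. A protein-coding start lay within 500 bp of 307 members and 2254 other peaks. The median summit position was 130 bp upstream of the nearest coding start for members and 70 bp upstream for the rest, and the most filled bin of 50 bp was 150 to 100 bp upstream for members and 100 to 50 bp upstream for the rest. Summits more than 100 bp upstream made up 192 of 307, or 62.5% (57.0% to 67.8%), of members and 849 of 2254, or 37.7% (35.7% to 39.7%), of the rest (Fisher's exact test, adjusted p = 2.85e-16 over 3 features chosen after the values were seen). Summits anywhere upstream made up 86.6% of members and 80.6% of the rest (Fisher's adjusted p = 0.00994). Without replicate 4, the second comparison had an adjusted p of 0.0948.

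The shift was seen in promoters of both kinds. Where coding starts lay on 1 strand only, or did not point away from each other, the median position was 177 bp upstream in 185 members and 82.0 bp upstream in 1394 other peaks. At divergent promoters, with coding starts on both strands that point away from each other, it was 89.5 bp upstream in 122 members and 59.0 bp upstream in 860 other peaks.

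**Figure D3:**
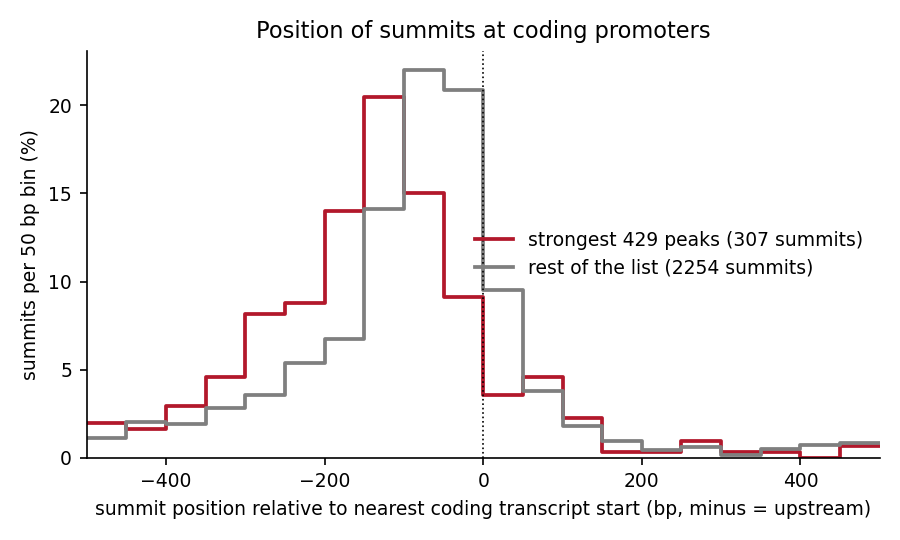
Position of summits relative to the nearest protein-coding transcript start (bp, minus is upstream, horizontal) as the share of summits in each bin of 50 bp (percent, vertical), for the strongest 429 peaks (red, 307 summits) and the rest of the list (grey, 2254 summits). The members' curve peaks at 20.5%, between 150 and 100 bp upstream, and lies left of that of the rest.

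At the main distance, the share of divergent promoters among promoter members did not differ past the threshold from that among other promoter peaks. They made up 122 of 307, or 39.7% (34.4% to 45.3%), of the members with a coding start and 860 of 2254, or 38.2% (36.2% to 40.2%), of the rest (Fisher's exact test, p = 0.617). With 200 bp in place of 500 bp, which asks that both starts lie close to the summit, divergent promoters made up 81 of 213 members and 389 of 1800 other peaks, a share higher by 16.4 percentage points (Fisher's p = 3.33e-07). When the strongest 858 peaks stood in for the strongest 429, the share was higher by 7.21 percentage points than in the rest (Fisher's p = 0.00191). Examples among the members were Shc (rank 8), Chro (rank 9), mRpS10 (rank 10), mRpL23 (rank 39) and SLIRP2 (rank 44). A start of a noncoding gene lay within 500 bp of 20 members, or 4.66%, and of 4.58% of the rest. For tRNA genes this held for 2 members, or 0.466%, and 0.336% of the rest. For snoRNA genes it held for 2 members, or 0.466%, and 0.362% of the rest. These shares were close to each other, and 9 promoter members had no coding start in reach.

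Members lay on all 6 chromosome arms. Arm 2L held 89, 2R 85, 3L 81, 3R 101, X 71 and chromosome 4 held 2. No arm passed the threshold (Fisher's exact test, lowest adjusted p = 0.867 over 6 arms, with an unadjusted p under 0.05 for none), and on dm3 none passed either. The strongest member was that at cbt on 2L, mRpL41 on 2R, CG14100 on 3L, Lk6 on 3R, Ugalt on X and Cals on chromosome 4. The last 2 chromosome 4 places were ranks 426 and 428, close to the threshold.

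Members often had neighbours. Another optimal summit lay within 1000 bp of 112 members, or 26.1%, and of 717 other peaks, or 18.6%, and within 5000 bp of 270 members, or 62.9%, and of 2034 other peaks, or 52.6%. Neighbours were not always separate regions: 64 members, or 14.9%, and 10.5% of the rest overlapped another listed peak. The HmgZ peaks at ranks 11 and 434, for example, have the same start and end. The 429 members fell into 426 regions once overlapping peaks were merged and had 402 nearest coding genes. Of these genes, 21 had 2 members and 3 had 3. The 3 were chinmo, the kinase gene Raf of the Ras pathway, and the forkhead factor gene CHES-1-like. Members at chinmo had signal values of 916, 435 and 384 and lay 12474, 18416 and 7843 bp from its nearest start. Those at Raf had values of 631, 427 and 354, and those at CHES-1-like 391, 385 and 371. Genes with 2 members included cbt (2583 and 599), Trl, the GAGA factor gene (1261 and 477), ph-p, a Polycomb group gene (1269 and 493), dnc, a cAMP phosphodiesterase gene (685 and 654), and tara, a transcriptional regulator gene (623 and 529).

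Summits of members had less G and C than those of the rest, and their flanks slightly more, except for intergenic members. The median G and C content within 50 bp of the summit was 31.7% for members, with quartiles of 27.7% and 36.6%, against 36.6% for the rest, with quartiles of 30.7% and 44.6%. In a window of equal width 200 to 300 bp to 1 side, the median was 45.5% for members and 43.6% for the rest. By class, this flank median was 45.5% for promoter members against 42.6% in the rest, and 44.6% for intron members against 43.6%. For intergenic peaks it was 41.6% for members and 44.6% for the rest. The summit window held less G and C than its flank in 353 members, or 82.3% (78.4% to 85.6%), and in 2416 other peaks, or 62.5% (Fisher's exact test, adjusted p = 5.69e-17, a feature chosen after the values were seen).

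The members' median was lower in each main class. Promoter members had a median of 31.7% at the summit, against 38.6% for promoter peaks of the rest. Intron members had 30.7%, against 33.7% for intron peaks of the rest, and intergenic members 34.7%, against 35.6%. By rank within the strongest 429 peaks the median was 31.7% over ranks 1 to 25, 30.7% over ranks 26 to 60, 31.7% over ranks 61 to 200 and 31.7% over ranks 201 to 429. Over the list in 10 steps it ran from 31.7% in the strongest and 33.7% in the next to 38.6% in the weakest.

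**Figure D4:**
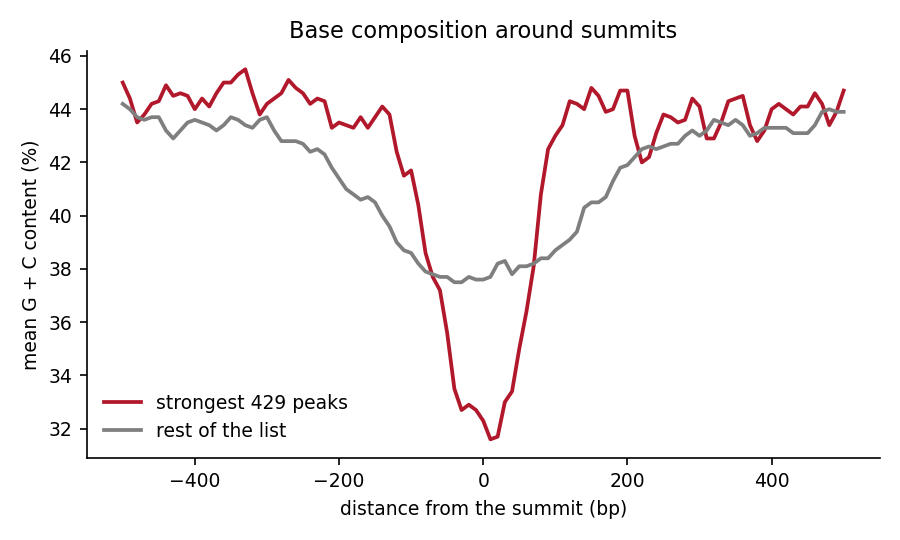
Mean G and C content (percent, vertical axis not starting at 0) by distance from the summit (bp, horizontal) in windows of 21 bases, for the strongest 429 peaks (red) and the rest of the list (grey). The mean at the summit was 32.3% for members and 37.6% for the rest, and 250 bp to the left it was 44.6% for members and 42.7% for the rest. To the right it was 43.8% for members and 42.6% for the rest at 250 bp, but 42.0% for members and 42.5% for the rest at 220 bp.

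The Pho consensus was found anywhere in the peak in 56 members, or 13.1%, a count that was not made in the rest of the list. Within 50 bp of the summit and on either strand, it was found in 28 members, or 6.53% (4.55% to 9.27%), and in 166 other peaks, or 4.30% (3.70% to 4.98%), a difference that did not pass after adjustment over 16 motifs (Fisher's exact test, unadjusted p = 0.0486, adjusted p = 0.0707). Within 25 bp of the summit the difference was −0.154 percentage points. In the members' own flanks the consensus was found in 20, or 4.66%, which did not differ from the summit past the threshold (exact McNemar test, adjusted p = 0.483). The core GCCAT, which the consensus contains, was found in 76 members, or 17.7%, against 602 other peaks, or 15.6% (Fisher's adjusted p = 0.325), and in 72 of the members' flanks.

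Of the 28 members with the consensus, 21 were at promoters, 5 in introns, 1 in an exon of a noncoding transcript and 1 was intergenic, and in 11 the middle of the match lay within 25 bp of the summit. The strongest were mRpL41 (rank 5, match centred 1 bp from the summit), GstE13 (rank 29, 42 bp), MFS10 (rank 34, 25 bp), chinmo (rank 37, 4 bp) and CG6565 (rank 43, 30 bp). The form GCCATTTT, shown at osa, was the most frequent, in 8 members, or 1.86%, and 36 other peaks, or 0.932%. GCCATAAT followed with 5 members, or 1.17%, and 13 other peaks, or 0.336%. GCCATCTC, the second most frequent form in the rest with 25 peaks, or 0.647%, was in 1 member, or 0.233%. AGATGGC, whose other strand contains GCCAT, was found in 3 members, or 0.699%, and 92 other peaks, or 2.38% (Fisher's adjusted p = 0.0405). This call was lost without replicate 3 (Fisher's adjusted p = 0.137), without replicate 4 (Fisher's adjusted p = 0.123), with the strongest 214 peaks (Fisher's adjusted p = 0.145), and with windows of 25 bp (Fisher's adjusted p = 0.236) or 100 bp (Fisher's adjusted p = 0.121).

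Sequences of housekeeping promoters were not more frequent among members. TATCGATA was found in 7 members, or 1.63% (0.793% to 3.33%), and in 137 other peaks, or 3.55% (3.01% to 4.18%; Fisher's exact test, adjusted p = 0.0539). Among promoter peaks alone the share in the strongest 429 peaks was lower by 3.41 percentage points and passed (Fisher's adjusted p = 0.0222), as it did without replicate 4 (Fisher's adjusted p = 0.0421). The 5 strongest members with it were Alg3 (rank 164), MESR4 (rank 229), NaCP60E (rank 238), RpS25 (rank 268) and CG1827 (rank 292). GGTCACACT, known as motif 1 of fly promoters, was found in 2 members, at RpL7 and RpLP0, and in 60 other peaks (Fisher's adjusted p = 0.114). ACTATCG was found in 7 members, or 1.63%, and 183 other peaks, or 4.74% (Fisher's adjusted p = 0.00702), and this call was lost without replicate 3 (Fisher's adjusted p = 0.129) and with windows of 25 bp (Fisher's adjusted p = 0.284) or 100 bp (Fisher's adjusted p = 0.0520). None of the Pho consensus, TATCGATA, GGTCACACT and AGATGGC was found within 50 bp of the summit in 393 members, or 91.6%. This share was not counted in the rest, where each of the 4 was found in 4.30% of peaks or fewer. It is therefore not given as particular to the members.

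The motifs that passed towards a higher share were rich in A and T. TTTAAA was found in 109 members, or 25.4%, and 589 other peaks, or 15.2% (Fisher's exact test, adjusted p = 4.44e-06), and in 36 of the members' flanks (exact McNemar test, adjusted p = 3.29e-09). TATAAA, the sequence of the TATA box, was found in 93 members, or 21.7%, and 616 other peaks, or 15.9% (Fisher's adjusted p = 0.0101), and in 42 flanks. In the next 429 peaks down the list it was found in 89, or 20.7%. With a summit window of 25 bp to each side the TATAAA call was lost (Fisher's adjusted p = 0.236), as it was with 100 bp (Fisher's adjusted p = 0.0601). Both motifs are made of A and T alone, and the part of base composition in their shares was not tested.

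Within 50 bp of the summit, the following 4 sequences were less frequent at members. The GAGA factor sequence GAGAG was found in 32 members, or 7.46%, and 447 other peaks, or 11.6% (Fisher's adjusted p = 0.0218). The GAGAG call was lost with the strongest 214 peaks (Fisher's adjusted p = 0.320), with windows of 25 bp (Fisher's adjusted p = 0.545) or 100 bp (Fisher's adjusted p = 0.865), and among promoter peaks alone (Fisher's adjusted p = 0.160). GTGTG was found in 52 members, or 12.1%, and 745 other peaks, or 19.3% (Fisher's adjusted p = 0.00148). The Zeste site, GAG between C or T and C or T followed by G, was found in 31 members, or 7.23%, and 502 other peaks, or 13.0% (Fisher's adjusted p = 0.00193), and this call was lost with the strongest 214 peaks (Fisher's adjusted p = 0.0570). The Sp1 and KLF type site, GG after 2 bases that are A or G and before C or T and then G, was found in 51 members, or 11.9%, and 660 other peaks, or 17.1% (Fisher's adjusted p = 0.0162), and this call was lost with windows of 100 bp (Fisher's adjusted p = 0.853). All 4 were found more often in the members' flanks, with 88 for GAGAG, 107 for GTGTG, 89 for the Zeste site and 98 for the Sp1 and KLF type site (exact McNemar test, highest adjusted p = 0.000131). All 4 are rich in G, and G and C were scarcer at the members' summits as given above. The part of base composition in these differences was not tested.

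CAGCTG, the E-box form bound by many basic helix-loop-helix factors, was found in 13 members, or 3.03%, and 220 other peaks, or 5.69% (Fisher's adjusted p = 0.0362). The CAGCTG call was lost with the strongest 214 peaks (Fisher's adjusted p = 0.0849), with windows of 25 bp (Fisher's adjusted p = 0.918) or 100 bp (Fisher's adjusted p = 0.549), and among promoter peaks alone (Fisher's adjusted p = 0.0668). The 3 remaining motifs did not pass: GAAAA was found in 47.6% of members and 46.4% of the rest, CACGTG in 1.40% of members and 1.32% of the rest, and CAGGTAG, the Zelda site, in 0.233% of members and 0.466% of the rest (lowest Fisher's adjusted p = 0.739). In all, 9 of the 16 motifs passed, 2 towards a higher and 7 towards a lower share.

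Among distal peaks alone, none of the 16 motifs passed (Fisher's exact test, lowest adjusted p = 0.484 among the motifs named here). Distal members numbered 113, so a lost call does not show that a difference was confined to promoters. In percentage points, the distal difference was −6.40 for GAGAG (−4.11 over all peaks) and −6.89 for GTGTG (−7.16 over all peaks). It was smaller for TTTAAA, with 6.01 (10.2 over all peaks), and for the Zeste site, with −1.87 (−5.77 over all peaks).

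Over all 2080 words of 6 bases with both strands joined, 41 words, or 1.97%, were more frequent and 18 words, or 0.865%, less frequent in the strongest 429 peaks (Fisher's exact test, adjusted over all words). Of the 41, 21 were made of A and T alone, 19 held a single G or C, and 1, CCATGA, held 3. ATTTAA stood first, in 161 members, or 37.5%, and 809 other peaks, or 20.9% (Fisher's adjusted p = 2.99e-10). TTAAAA followed with 39.4% of members and 25.3% of the rest (Fisher's adjusted p = 1.81e-06). ATTTAA was found in 36.0% of ranks 1 to 25, 37.1% of ranks 26 to 60, 41.4% of ranks 61 to 200 and 35.4% of ranks 201 to 429. CCATGA was found in 19 members, or 4.43%, and 53 other peaks, or 1.37% (Fisher's adjusted p = 0.00631), and did not pass without replicate 3 (Fisher's adjusted p = 0.141) or without replicate 4 (Fisher's adjusted p = 0.127).

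Of the 18 words that were less frequent, 14 held CG. TATCGA, a piece of the DREF site, was found in 23 members, or 5.36%, and 485 other peaks, or 12.6% (Fisher's adjusted p = 0.000955), and CGATAG in 16 members, or 3.73%, and 373 other peaks, or 9.65% (Fisher's adjusted p = 0.00173). With the strongest 214 peaks neither passed (Fisher's adjusted p = 0.0681 for TATCGA and 0.157 for CGATAG), and with windows of 25 bp both stood at a Fisher's adjusted p of 0.278. With windows of 100 bp TATCGA did not pass (Fisher's adjusted p = 0.0640). The number of less frequent words was 11 without replicate 3 and 11 without replicate 4. The 8 words that contain GCCAT did not pass in either direction.

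**Figure D5:**
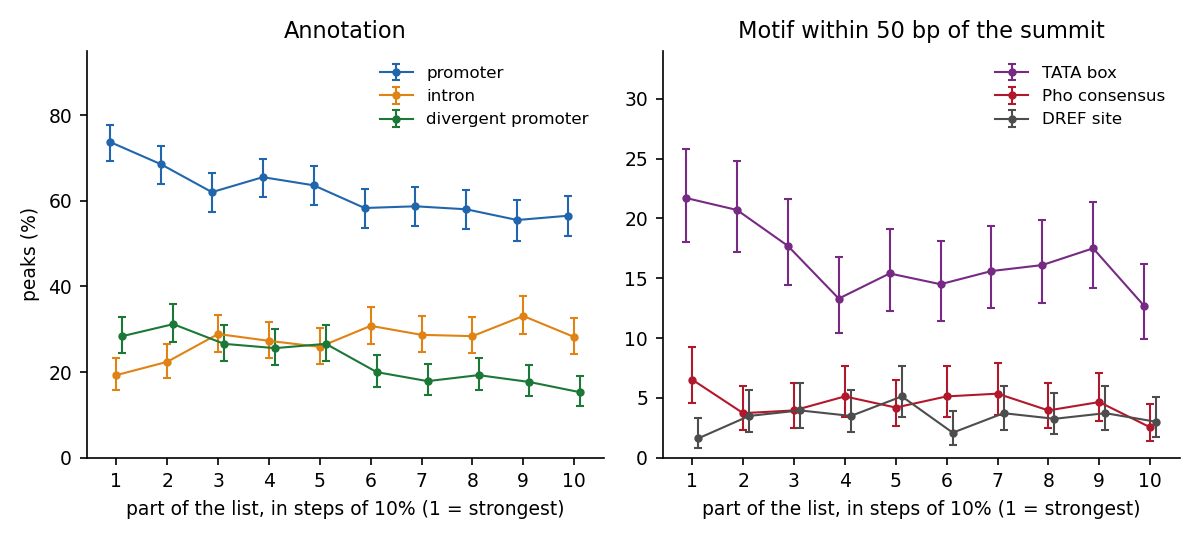
Share of peaks (percent, vertical) in 10 steps of the optimal list from strongest to weakest (horizontal), with 95% Wilson intervals. The left panel gives the share at promoters, in introns and at divergent promoters among all peaks of the step. The right panel gives the share with the sequence TATAAA (labelled TATA box), the Pho consensus or the DREF site within 50 bp of the summit. Promoters made up 73.7% of the strongest step and 56.5% of the weakest. The Pho consensus was found in 6.53% of the strongest step and 2.55% of the weakest, without a steady decline between them. It was found in 3.73% of step 2 and 5.36% of step 7.

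Genes were taken as carrying a member when a member's summit lay within 1000 bp of a transcript start. This held for 508 of 13945 protein-coding genes, or 3.64%, and 3642 genes, or 26.1%, had any optimal summit in that reach. Several genes can share a peak, so counts over gene lists are given beside these shares without a test. A list share above 3.64% is not shown to be particular to members where the list's share with any optimal summit also exceeds 26.1%.

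Cytoplasmic ribosomal protein genes carried a member at 14 of 86 genes, or 16.3%, and 69 had any optimal summit. The strongest were RpS27 (rank 61, signal value 764), RpL7 (rank 99, 663), RpL23A (rank 117, 606) and RpL34b (rank 128, 578), and all 14 summits lay at promoters. At RpS20 and RpL41 another gene's start was nearer to the summit. Mitochondrial ribosomal protein genes carried a member at 5 of 73, or 6.85%, and 4 of the 5 ranked within the strongest 39: mRpL41 (rank 5), mRpS10 (rank 10), mRpS23 (rank 19) and mRpL23 (rank 39). Of 55 translation factor genes, 4 carried a member, among them eIF2Bbeta, which shares the Ugalt peak, eIF6 and eIF3c. Of 32 aminoacyl-tRNA synthetase genes, 3 did, SerRS, LeuRS-m and IleRS. Of 32 proteasome subunit genes 1 did, Rpn5, or 3.12%, which is close to the share over all genes. Any optimal summit lay at 37 of the mitochondrial ribosomal protein genes and 23 of the translation factor genes. The same held for 12 of the synthetase genes and 12 of the proteasome genes.

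Members lay at 5 of 45 genes of growth and insulin signalling, or 11.1%. These included Lk6 (rank 6), larp, an RNA-binding protein gene (rank 15), Sesn (rank 60) and REPTOR, a transcription factor that TORC1 holds back (rank 127). The count was 3 with 500 bp in place of 1000 bp and 7 by nearest gene. In the Ras and MAP kinase list 4 of 41 genes carried a member, or 9.76%, with Shc (rank 8, value 1560) and spi, a ligand of the EGF receptor (rank 77, value 724), in front. That count was 2 with 500 bp, and 20 of the 41 genes, or 48.8%, had any optimal summit. Atf3, a bZIP factor gene (rank 25), and Irbp18, a C/EBP-like factor gene (rank 183), joined cbt among the 3 of 23 genes of bZIP and immediate-early factors. Here cbt counts through its peak at rank 118, 356 bp from a start, as its rank 1 peak lay 1368 bp away. Of the 23 genes, 13 had any optimal summit, or 56.5%.

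Of 22 genes for insulator and housekeeping promoter factors, 5 carried a member, or 22.7%: Chro (rank 9), Nup98-96 (rank 230), Cp190 (rank 262), row (rank 408) and Trl. Any optimal summit lay at 12 of the 22, or 54.5%. Of 11 genes for binding factors of Polycomb response elements, 3 carried a member: Trl (rank 198, 134 bp from a start), Adf1 (rank 36) and Dsp1 (rank 243). The stronger Trl peak, rank 22 in an intron, lay 1540 bp from the nearest start and outside this reach. With 500 bp the count was 1, and 7 of the 11 genes had any optimal summit. In the Polycomb group list 2 of 25 genes did, ph-p (rank 21, value 1269) and Su(z)12, a subunit of Polycomb repressive complex 2 (rank 321, value 388). Of 33 genes of the trithorax group and remodelers, 2 carried a member, Ino80 (rank 131) and brm (rank 377), and by nearest gene osa and trx were added. Any optimal summit lay at 18 of the 33, or 54.5%. Among the genes best known as Polycomb targets in flies, 0 of 8 Hox genes carried a member and 1 had any optimal summit. Of 23 segmentation genes, 0 carried a member and 1 had any optimal summit. Both lists are short beside a share of 3.64% over all genes, so no lack of members is read from them. Summits over 1000 bp from a start are not counted here, and by nearest gene both counts were 0 too.

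Of 83 genes for developmental transcription factors 2 carried a member, bowl (rank 172) and NK7.1 (rank 212). This is 2.41%, beside 3.64% over all genes, a small count given without a test, and 10 of the 83 had any optimal summit. Of 24 genes of the ecdysone response and nuclear receptors, 2 carried a member, Hr96 (rank 153) and Eip75B (rank 284), or 8.33%, and 7 had any optimal summit. Of 37 genes for RNA-binding proteins, 4 carried a member, larp, mub (rank 109), elav (rank 158) and brat (rank 252), or 10.8%, and with 500 bp 2 did. Any optimal summit lay at 26 of the 37, or 70.3%, so the list was bound often in general. The list of cyclins, Cdks and replication licensing had 1 of 47, Dp (rank 349), or 2.13%, with any optimal summit at 19. It does not hold dpa, a replication licensing gene with a member at rank 427 and 100 bp from its start. Of 26 heat shock genes 1 carried a member, Hsp83 (rank 326), and 7 had any optimal summit. In 2 short lists, given without a test, no member lay at any of 27 Notch pathway genes or 30 Rab GTPase genes, of which 11 and 14 had any optimal summit. The same held for 179 chemosensory receptor genes and 121 cuticle protein genes, of which 4 and 1 had any optimal summit.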

How the data were processed

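Per the labels, sonicated embryo chromatin had a size range of 200 to 800 bp. The precipitating antibody was against GFP, though the antibody field reads pho. The authors deposited, per peak, a signal value and a −log10 q-value, for each replicate (30000 entries each), for pooled reads and for an optimal list by irreproducible discovery rate. The optimal list is the strongest part of the pooled list. The sources used here name no aligner, caller, version or threshold.

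Peaks on dm6 were ranked by signal, with the summit at start plus offset, and classed by gene models of Ensembl release 115 without transposable elements. The sequence was RefSeq release 6. A summit within 500 bp of a transcript start was a promoter summit, and others took the class of their base, UTR and coding exon before noncoding exon, intron and intergenic. Shares were compared with Fisher's exact test, and summit and flank with an exact McNemar test (scipy 1.17.1), two-sided, with Benjamini-Hochberg adjustment within each family and a threshold of 0.05. Wilson intervals (95%) cover counting error only. Scripts were tested on simulated data. Alternatives were each replicate's own list, other shares of the list, other distances and windows, merged regions, annotation subsets and dm3. Genes named are the nearest coding genes of the 10 strongest peaks, of ranks 26 to 60, of peaks around the threshold, of the strongest peak per class and arm, of members with a motif and of the largest rank differences, with up to 4 per gene list, and genes of counts of 5 or fewer. Genes with several members, the widest peaks and the examples of divergent promoters were chosen after their values were seen. Members, lists and tests were chosen with earlier results of these data known.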

Additional observations from a re-analysis of the deposited data

How the results depend on the processing

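No paired analysis was possible because the series holds 1 group. Taking promoters within 200 bp, the promoter share was higher by 2.60 points (Fisher's p = 0.309), 0 classes passed, the intergenic difference was 2.08 points, reversed, and divergent promoters were more frequent by 16.4 points. With the strongest 858 peaks, divergent promoters were more frequent by 7.21 points, GCCAT stood at −0.219 points, GCCAT and GGTCACACT against flanks at −0.816 and 0.117 points, and 31 words were less frequent. With the strongest 214 peaks, 24 words were more and 2 less frequent, GGTCACACT against flanks stood at 0.467 points, and the upstream share was higher by 5.63 points (Fisher's adjusted p = 0.0902). With 25 bp windows 4 motifs passed, 7 words were more and 1 less frequent, and the Pho consensus stood at −0.154 points. With 100 bp windows 4 motifs passed and 14 words were more frequent. Among distal peaks 0 motifs, 0 more frequent and 0 less frequent words passed, and ATCGAT stood at 2.94 points. Merged regions left 11 less frequent words. On a single replicate the count of less frequent words was 11 and 11, the upstream share was higher by 4.07 to 10.4 points, GCCAT against flanks ranged from −1.40 to 6.29 points and GGTCACACT against flanks from −0.233 to 0.233 points. Matching within 50 and 250 bp gave 388 and 429 members. Causes of these changes were not tested. The higher share of members with a summit over 100 bp upstream passed under every alternative in which it was tested. So did the higher share of members with less G and C at the summit than in the flank. Both features were chosen after the values were seen. Depth is unknown, so limits from read number cannot be given.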
